A study of Mus musculus with 28 samples.

Results

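The 200 kb window of the mouse genome that holds Cdkn2a and Cdkn2b was described in 4 chromatin segmentations and 2 lists of SIRT7 peaks. It was chosen by position, chr4:88850001-89050000 in the mm9 build counted from 1, and comprised 1000 bins of 200 bp out of 13274547 bins in all. The cells were mouse embryonic fibroblasts (MEFs), primary fibroblasts of strain 129s2 from embryos of 14.5 days, used at passages 3 to 4. They were SirT7-/- (KO) or wild type (WT), and treatment was labelled GS or NT, abbreviations that the labels do not expand, in a series whose title concerns glucose starvation. The 4 segmentations, KO-GS, KO-NT, WT-GS and WT-NT, each rested on 4 ChIP-seq libraries, 2 for the histone mark H3K27me3 and 2 for the histone variant macroH2A1.1 (mH2A1 in the sample names). The 2 SIRT7 lists, GS and NT, came from WT cells alone and rested on 2 libraries each, and the series of 28 libraries held 8 inputs.

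Cdkn2a encodes a pair of tumour suppressors from alternative promoters: p16Ink4a, which inhibits the cyclin D-dependent kinases, and p19Arf, which stabilises p53 by binding Mdm2. Cdkn2b encodes p15Ink4b, a further inhibitor of the cyclin D-dependent kinases. In young cultured fibroblasts the locus is a textbook target of Polycomb repressive complexes, which deposit H3K27me3, and its release is a hallmark of senescence in culture. MacroH2A1.1 carries a macrodomain that can bind ADP-ribose, and SIRT7 is a nuclear NAD-dependent deacylase.

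RefSeq promoters were matched for both genes, at 3 start sites, and the 250 bases before each start are printed because CG-rich promoters are the usual landing places of Polycomb complexes in mammals. All are on the minus strand of GRCm38.p6, read 5′ to 3′, with each CG dinucleotide in capitals. The table gives both Cdkn2a starts under the gene's symbol alone. The start farther upstream in the direction of transcription (chr4:89294620-89294869) is here called the p19Arf start and the one farther downstream (chr4:89282193-89282442) the p16Ink4a start, after the textbook layout of the gene. Cdkn2b has 1 start (chr4:89311033-89311282).
Cdkn2a, p19Arf start: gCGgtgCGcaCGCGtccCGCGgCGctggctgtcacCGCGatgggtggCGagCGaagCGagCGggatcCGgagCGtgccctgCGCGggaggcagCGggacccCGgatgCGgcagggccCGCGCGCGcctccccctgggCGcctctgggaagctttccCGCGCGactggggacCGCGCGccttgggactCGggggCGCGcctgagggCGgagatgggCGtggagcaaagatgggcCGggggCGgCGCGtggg
Cdkn2a, p16Ink4a start: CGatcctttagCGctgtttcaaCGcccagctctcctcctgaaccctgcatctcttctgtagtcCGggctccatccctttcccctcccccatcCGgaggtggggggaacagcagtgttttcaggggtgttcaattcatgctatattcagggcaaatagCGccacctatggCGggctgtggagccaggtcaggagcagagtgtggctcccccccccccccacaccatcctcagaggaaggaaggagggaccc
Cdkn2b: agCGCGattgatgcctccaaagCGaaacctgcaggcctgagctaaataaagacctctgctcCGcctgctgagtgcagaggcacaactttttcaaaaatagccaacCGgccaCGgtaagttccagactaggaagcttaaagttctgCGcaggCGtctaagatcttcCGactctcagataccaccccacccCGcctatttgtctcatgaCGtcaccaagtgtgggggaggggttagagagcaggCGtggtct

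The p19Arf promoter held 40 CG dinucleotides and was 78.4% G or C, and 1.31% of the 32851 mouse promoters held as many CG or more. The Cdkn2b promoter held 12 CG and was 53.6% G or C, and the p16Ink4a promoter held 7 CG and was 60% G or C, beside medians of 6 CG and 52.4% over all promoters. As many CG or more were found in 33.5% of promoters for Cdkn2b and in 46.3% for p16Ink4a. Of the 3 printed sequences, only that before the p19Arf start thus lay far into the CG-rich tail. Sequence past each start was not counted, so whether a CG-rich region lies there is not known here for any of them. The motif GGGCGG, a GC box, occurred 2 times in the p19Arf promoter, on the gene's strand, and in neither of the others on either strand, and 32.7% of all promoters of that length held it. TATAAA was found in none of the 3 on either strand, against 12.4% of all promoters.

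The promoters and the segmentations are on different builds, and no annotation of mm9 was used here, so the genes could not be placed on particular bins and no state below is assigned to a promoter. For the same reason other Polycomb targets and genes of the pathway were not located. In the GRCm38.p6 annotation the genes follow one another in the order Gm12607, Gm26490 and Tgif2-ps1, a pseudogene, a small nucleolar RNA gene and a pseudogene, then Cdkn2a, the long noncoding RNA gene Gm12610 and Cdkn2b, and then the pseudogene Gm12608, Dmrta1 and Zfp352. No expression was measured in these data, so the level of Cdkn2a and Cdkn2b RNA is not known here.

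Each segmentation assigned every bin to 1 of 4 states, U1 to U4. The sources used here give neither the meaning of a state nor whether it was defined alike in the 4 segmentations. The states keep their deposited names, and a bin in U2, U3 or U4 is called marked. Each segmentation pooled its replicates and read depths are unknown. No value has a replicate error and no difference was tested between samples. Most shares and differences of the window are set beside the same measure over chromosome 4, the genome or both.

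The locus was richer in marked sequence than the genome in all 4 segmentations. Marked bins made up 54.4% of it in KO-GS, 40.1% in KO-NT, 54.4% in WT-GS and 45.5% in WT-NT, which is 108.8, 80.2, 108.8 and 91 kb. Over the genome the marked share was 27.3% in KO-GS, 26.5% in KO-NT, 29.9% in WT-GS and 29.5% in WT-NT, and over chromosome 4 it was 26.9%, 25.9%, 29.9% and 29.1% in the same order. Many marked windows of the genome reached such levels. Of 13262 windows of 200 kb tiled over the genome, 10572 had a marked bin in some segmentation, and among these 26.5% reached the marked share of the locus in KO-GS, 36.5% in KO-NT, 29.5% in WT-GS and 37.0% in WT-NT.

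Most of the excess was U2. This state covered 37.7% of the locus in KO-GS, 23.4% in KO-NT, 41.1% in WT-GS and 33.3% in WT-NT, against 17.0%, 16.4%, 19.8% and 19.6% of the genome. U3 covered 13.1% of the locus in KO-GS, 14.2% in KO-NT, 10.8% in WT-GS and 9.2% in WT-NT, against 8.50%, 9.04%, 8.42% and 7.88% of the genome. U4, the rarest state, covered 3.6%, 2.5%, 2.5% and 3% of the locus, against 1.87%, 1.06%, 1.64% and 2.02% of the genome. Each of the 3 marked states was thus above its genome share in every segmentation, and the order of the segmentations differed by state: U2 was highest in WT-GS and lowest in KO-NT, and U3 was highest in KO-NT and lowest in WT-NT.

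**Figure D1:**
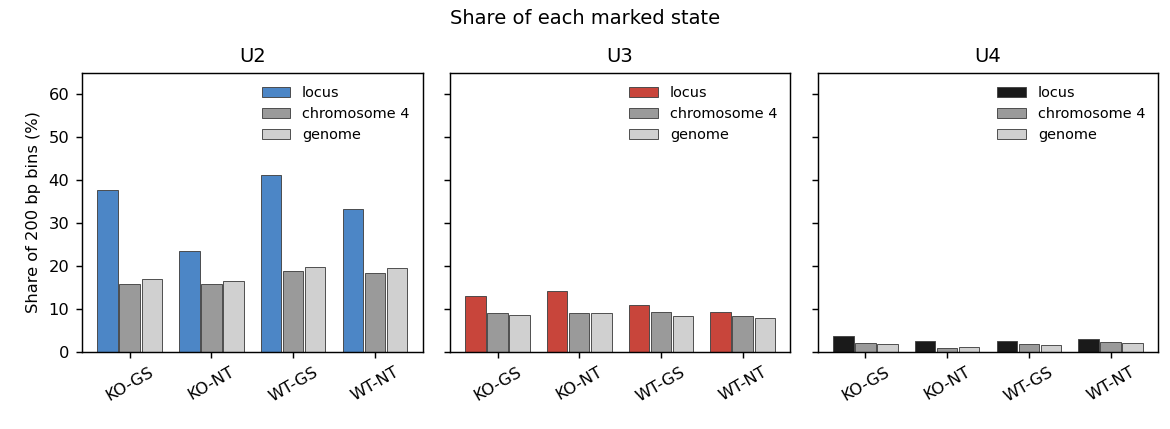
Share of 200 bp bins in U2, U3 and U4 (y axis, percent) in the locus, on chromosome 4 and in the genome, for each segmentation (x axis). The locus bar is above both others in every segmentation and state, with U2 at 37.7%, 23.4%, 41.1% and 33.3% from left to right, and there is no error bar because each segmentation is a single pooled file.

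Along the window the states fell into 3 stretches, whose limits were drawn after the values were seen. The left stretch, chr4:88850001-88935800 (85.8 kb), held every U3 and every U4 bin of the window. It was marked in 83.7% of bins in KO-GS, 74.4% in KO-NT, 88.6% in WT-GS and 80.0% in WT-NT. The middle stretch, chr4:88935801-89013200 (77.4 kb), was almost wholly U1, with 0.517% of bins marked in KO-GS, 0% in KO-NT, 4.65% in WT-GS and 0% in WT-NT. The right stretch, chr4:89013201-89050000 (36.8 kb), held U2 and U1 only, and was marked in 99.5% of bins in KO-GS, 44.6% in KO-NT, 79.3% in WT-GS and 60.9% in WT-NT. GS exceeded NT in both genotypes in the left and right stretches, and the widest range among segmentations was in the right one.

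**Figure D2:**
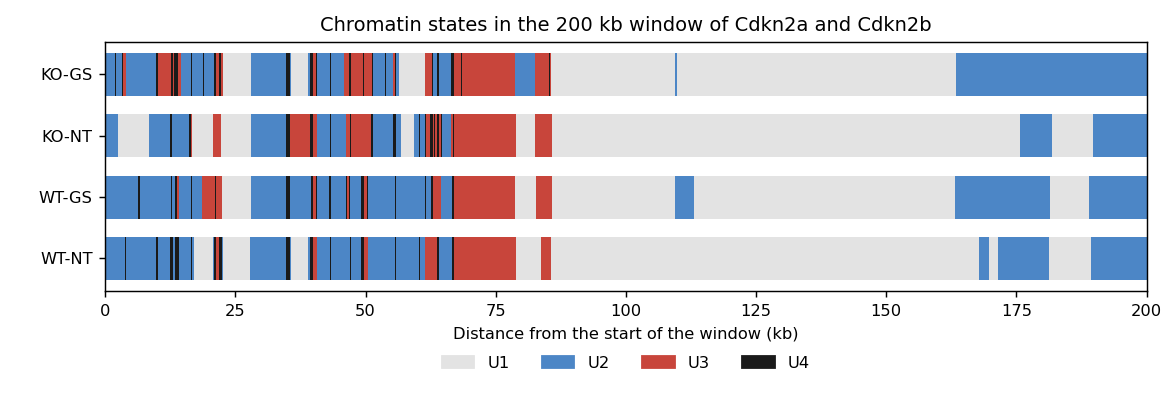
State of every 200 bp bin in the 4 segmentations (rows) against the distance from the start of the window in kb (x axis). A mosaic of U2, U3 and U4 fills the left stretch up to 85.8 kb, U1 fills most of the middle, and blocks of U2 return on the right, where KO-GS is U2 in all but 1 bin and KO-NT stays U1 the farthest.

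A block of U3 in the left stretch lay at almost the same place in all 4 segmentations. The longest U3 segment was chr4:88918601-88928600 (10 kb) in KO-GS, chr4:88917001-88928800 (11.8 kb) in KO-NT, chr4:88917001-88928600 (11.6 kb) in WT-GS and chr4:88917001-88928800 (11.8 kb) in WT-NT. Its right-hand end therefore differed by a single bin among the 4, and a core of 50 bins was U3 in all of them. Such lengths were uncommon, since the genome median of a U3 segment was 1.2 kb in KO-GS, 1.8 kb in KO-NT, 1.4 kb in WT-GS and 1.2 kb in WT-NT. In the same order, 2.13%, 3.47%, 2.14% and 1.27% of all U3 segments were at least as long. These shares do not allow for the choice of the longest segment. The longest U3 segments of other windows were not compared, and the block was picked as the longest of its own. In KO-GS a U4 bin, chr4:88918401-88918600, separated a further 7 bins of U3 from its left end.

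A smaller U3 block followed to the right and ended the marked left stretch. It began at 88932601 in KO-GS and KO-NT, at 88932801 in WT-GS and at 88933601 in WT-NT, and 8 bins of it, chr4:88933601-88935200, were U3 in all 4 segmentations. The last U3 bin ended at 88935600 in KO-GS and WT-NT and at 88935800 in KO-NT and WT-GS, so this border also lay within a single bin. Between the blocks the segmentations differed by state. The gap was U2 in KO-GS (chr4:88928601-88932600, 4 kb) and U1 in KO-NT (3.8 kb), WT-GS (4.2 kb) and WT-NT (4.8 kb).

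To the right of that border lay a long unmarked interval. The first marked bin after it began at 88959401 in KO-GS and WT-GS, at 89025601 in KO-NT and at 89017801 in WT-NT. The unbroken U1 run from the border was therefore 23.8 kb in KO-GS, 89.8 kb in KO-NT, 23.6 kb in WT-GS and 82.2 kb in WT-NT. Both GS segmentations broke it with an island of U2 that neither NT segmentation had, of 18 bins in WT-GS (chr4:88959401-88963000) and of 2 bins in KO-GS (chr4:88959401-88959800). Past the island, 251 bins (chr4:88963001-89013200, 50.2 kb) were U1 in all 4 segmentations, the longest such run in the window.

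The U2 sequence at the right-hand edge continued beyond the window. The segment that crossed the edge was chr4:89013401-89073600 (60.2 kb) in KO-GS, chr4:89039801-89052800 (13 kb) in KO-NT, chr4:89039001-89076400 (37.4 kb) in WT-GS and chr4:89039401-89072200 (32.8 kb) in WT-NT. It was longest in KO-GS and shortest in KO-NT. The 200 kb beyond the right edge were marked in 77.2% of bins in KO-GS, 62% in KO-NT, 79.5% in WT-GS and 80% in WT-NT. The 200 kb before the left edge were marked in 64.5%, 49%, 64.3% and 37.7% in the same order and held no U3 in any segmentation, so the U3 of the locus had no neighbour within 200 kb on that side.

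**Figure D3:**
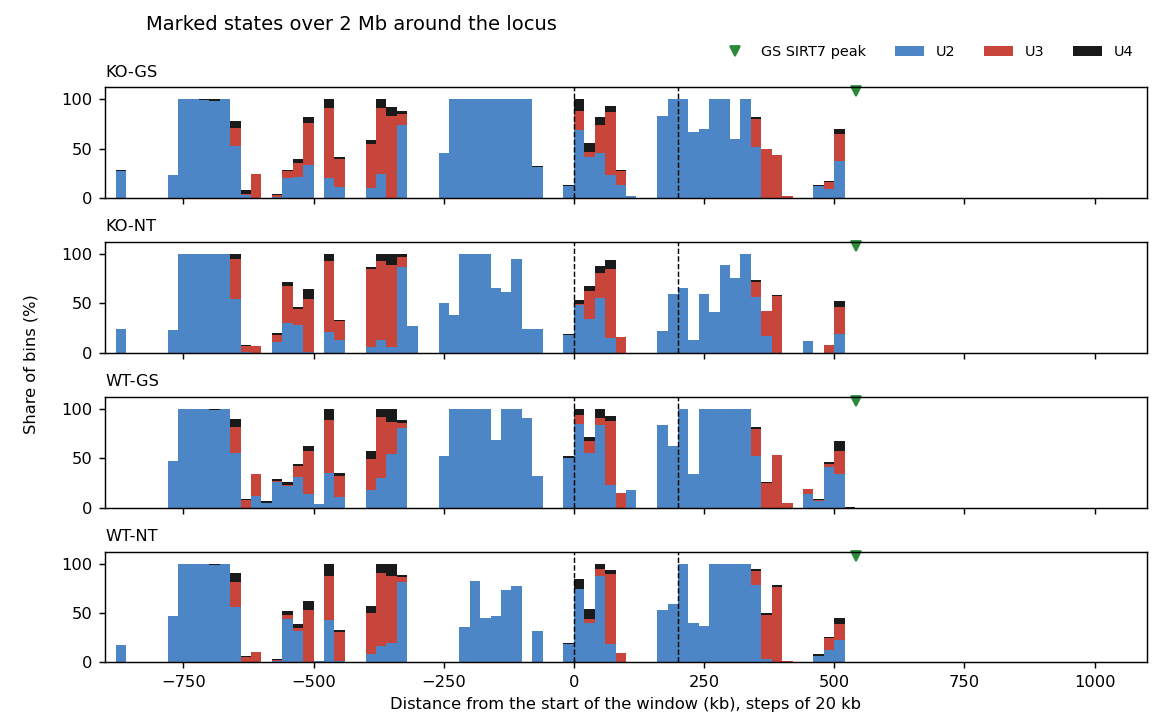
Share of bins in U2, U3 and U4 (y axis, percent) in steps of 20 kb over 2 Mb centred on the window, which lies between the dashed lines, for each segmentation. Triangles mark the GS SIRT7 peak nearest to the right edge of the window, and peaks farther to the right were not drawn. Marked sequence extends on both sides of the locus, and the peak drawn lies 342.6 kb past the right edge in unmarked sequence.

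The locus, U1 included, held 63 segments in KO-GS, 48 in KO-NT, 48 in WT-GS and 50 in WT-NT, against genome means of 27.6, 19.8, 25 and 27.5 segments per 200 kb. Of these, 58 were marked in KO-GS, 41 in KO-NT, 43 in WT-GS and 43 in WT-NT. Marked segments averaged 1.88 kb in KO-GS, 1.96 kb in KO-NT, 2.53 kb in WT-GS and 2.12 kb in WT-NT within the window. The genome means were 2.22, 3.15, 2.70 and 2.39 kb. Segments that crossed a window edge were counted only by their part inside it. In KO-GS this took 36.6 kb of a U2 segment of 60.2 kb. The window means are thus too low to be ranked against the genome. Many of the marked segments were U4, with 23 segments in KO-GS, 15 in KO-NT, 17 in WT-GS and 16 in WT-NT, of which 14, 8, 10 and 7 were a single bin. U4 never touched U1. Of its 46 borders in KO-GS, 23 were with U2 and 23 with U3, of its 30 in KO-NT 13 were with U2 and 17 with U3, of its 34 in WT-GS 23 were with U2 and 11 with U3, and of its 32 in WT-NT 26 were with U2 and 6 with U3. U4 thus lay inside or between U2 and U3, with the U3 side making up a larger part of the borders in KO than in WT. U3 itself also covered more of the locus in KO than in WT. The borders of U4 were not counted over chromosome 4 or the genome, so it is not known whether either trait is particular to the locus.

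The 4 segmentations gave the same state in 670 of the 1000 bins, or 67%, against 82.8% of chromosome 4 and 81.4% of the genome. The genome value includes 2690 windows of 200 kb that were U1 throughout in all 4, and it is not matched to the locus in marked share. These comprised 395 bins of U1, 192 of U2, 75 of U3 and 8 of U4. Of the bins ever in a state, the share in it in all 4 was 61.8% for U1, 38.6% for U2, 40.5% for U3 and 14.0% for U4, against 82.0%, 44.6%, 39.3% and 14.3% in the genome and 83.4%, 45.0%, 47.9% and 15.0% on chromosome 4. U1 and U2 were shared less often in the locus than in either. U3 was shared less often than on chromosome 4 and slightly more often than in the genome. Apart from the U3 core, the longest stretches shared outside U1 were U2 at chr4:89039801-89050000 (10.2 kb) and at chr4:88878001-88884800 (6.8 kb).

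The first comparison the design allows is GS against NT within WT cells. In WT the locus was more marked in GS, 54.4% against 45.5% in NT, a difference of 8.9 points, beside 0.762 points on chromosome 4 and 0.407 in the genome. Nearly all of it was U2, which covered 41.1% in GS and 33.3% in NT, a difference of 7.8 points. U3 differed by 1.6 points and U4 by -0.5. Among the 10572 windows with marked sequence, 7.56% had a marked difference as high as that of the locus or higher. The difference was not confined to the locus. In WT the 200 kb before its left edge were marked in 64.3% of bins in GS and 37.7% in NT, a wider difference. The 200 kb beyond its right edge were marked in 79.5% in GS and 80% in NT.

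In WT the state differed in 130 bins between GS and NT, 13% of the window, where 9.54% of the genome differed, and 40.2% of windows had as many differing bins. Most of these bins were marked in GS and U1 in NT. Of the 545 bins that were U1 in NT, 92 were marked in GS, or 16.9%, where the genome share was 4.98%. The genome shares of U1 bins, here and below, include windows that were U1 throughout. They are not matched to the locus in marked share. Of the 455 bins marked in NT, only 3 were U1 in GS, or 0.659%, where the genome share was 10.5%. A further 35 bins were marked in both with another state, 7.74% of the 452 marked in both, against 11.0% in the genome.

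The commonest difference in WT was U2 in GS where NT had U1, with 77 bins, 59.2% of those that differed against 30.9% in the genome. Long runs of it lay at chr4:89013201-89017800 (23 bins), at the island chr4:88959401-88963000 (18 bins) and at chr4:88885601-88889000 (17 bins). A run of U3 in GS where NT had U1 lay at chr4:88868601-88870600 (10 bins). The 36 runs included 20 of a single bin, and the 5 longest held 58.5% of the differing bins, so the WT difference consisted of a few blocks and scattered single bins. By stretch, 78 differing bins lay on the left, 18 in the middle and 34 on the right.

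In KO cells the same comparison gave a difference in the same direction. The locus was marked in 54.4% of bins in GS and 40.1% in NT, a difference of 14.3 points, beside 0.947 on chromosome 4 and 0.790 in the genome, and 6.30% of windows had a difference as high or higher. U2 covered 37.7% in GS and 23.4% in NT, a difference of 14.3 points, while U3 differed by -1.1 points and U4 by 1.1. The value rested on the outer parts of the window: over its inner 100 kb the marked difference was 1.4 points in KO and 4.4 points in WT. Both flanks were also more marked in GS in KO. The 200 kb before the left edge were marked in 64.5% in GS and 49% in NT, and the 200 kb beyond the right edge in 77.2% and 62%.

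The state differed in 264 bins between GS and NT in KO, 26.4% of the window, where 11.2% of the genome differed, and 14.3% of windows had as many differing bins. Of the 599 bins that were U1 in NT, 174 were marked in GS, or 29.0%, where the genome share was 6.2%. Of the 401 bins marked in NT, 31 were U1 in GS, or 7.73%, where the genome share was 14.2%. Of the 370 bins marked in both, 59 had another state, or 15.9%, against 12.5% in the genome.

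U2 in GS where NT had U1 accounted for 167 bins in KO, 63.3% of those that differed against 29.3% in the genome. The runs on the right were chr4:89013401-89025600 (61 bins) and chr4:89031801-89039800 (40 bins), which together joined the U2 blocks of KO-NT into the unbroken U2 of KO-GS. Others were chr4:88854001-88858400 (22 bins) and chr4:88928801-88932600 (19 bins), the gap between the U3 blocks. The reverse was found at chr4:88885601-88889000 (17 bins), which was U1 in GS and U3 in NT in KO. By stretch, 161 differing bins lay on the left, 2 in the middle and 101 on the right.

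**Figure D4:**
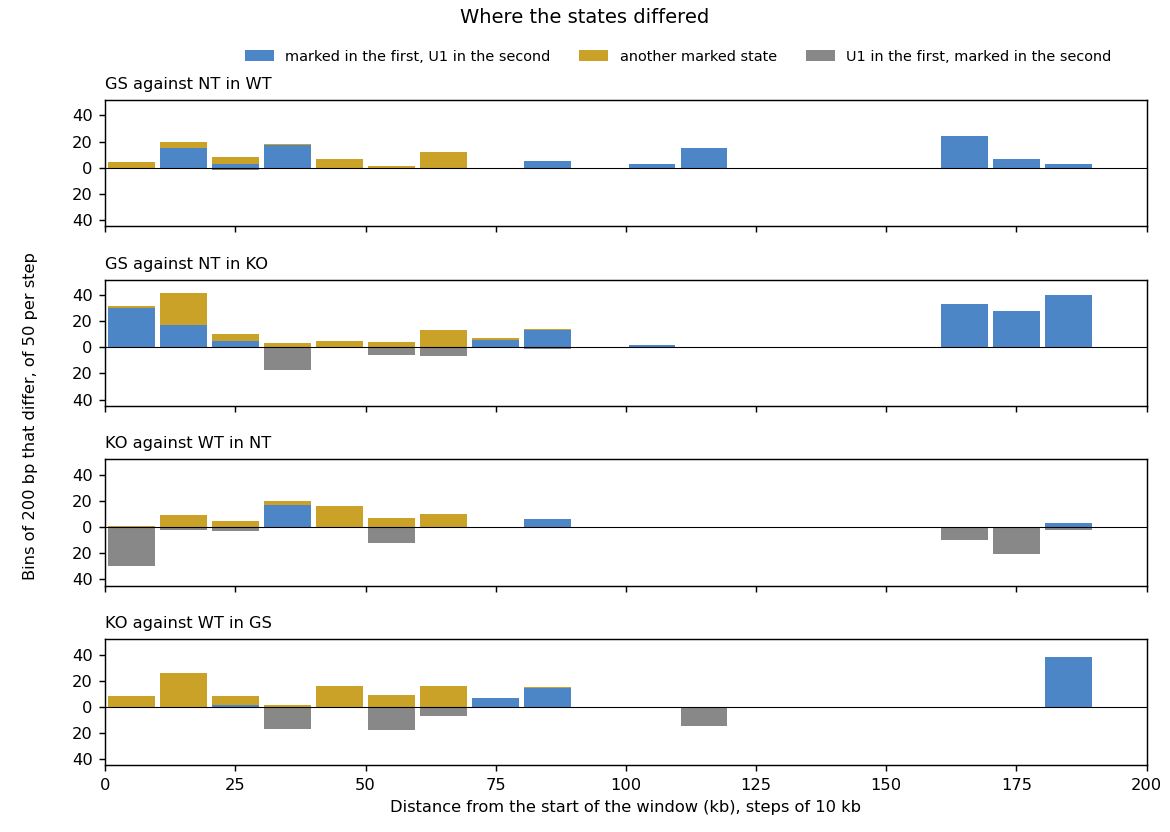
Bins of 200 bp that differ in each comparison (y axis, of 50 bins per step) against the distance from the start of the window in steps of 10 kb (x axis), with bins marked only in the first-named condition or marked in another state above the line and bins marked only in the second below it. For GS against NT, the step from 180 kb holds 40 such bins in KO and 3 in WT, and the step from 160 kb holds 33 in KO and 24 in WT.

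The bins that differed by treatment overlapped in part between genotypes, which share no segmentation in this comparison. Treatment went with a different state in both KO and WT in 94 bins, in KO alone in 170, in WT alone in 36 and in neither in 700. The 94 bins are 35.6% of the 264 in KO and 72.3% of the 130 in WT, and 43 of them had the same pair of states in both genotypes. In the genome the matching overlap was 35.1% of the differing bins in KO and 41.1% of those in WT. Each share depends on how many bins differed in the other genotype. In KO these were 26.4% of the window against 11.2% of the genome, and in WT 13% against 9.54%. The overlap shares are therefore not ranked against the genome here. Marked in GS and U1 in NT in both genotypes were 52 bins (10.4 kb), 5.2% of the window against 0.649% of the genome. Another 122 bins were so in KO alone, 12.2% against 3.91% of the genome, and 40 in WT alone, 4% against 2.87%. In the opposite direction, U1 in GS and marked in NT, no bin was found in both genotypes, where the genome had 0.526%. There were 31 such bins in KO alone, 3.1% of the window against 3.24% of the genome, and 3 in WT alone, 0.3% against 2.58%. Whether the treatment difference itself differed between genotypes was not tested, as there is 1 segmentation for each combination.

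Within NT, the locus was less marked in KO than in WT. Marked bins made up 40.1% in KO and 45.5% in WT, a difference of -5.4 points, beside -3.18 on chromosome 4 and -2.95 in the genome, and 64.2% of windows had a difference as high or higher. U2 covered 23.4% in KO and 33.3% in WT, a difference of -9.9 points, and U3 covered 14.2% in KO and 9.2% in WT, a difference of 5 points. The genome differed in the same directions by -3.15 and 1.16 points. Over the inner 100 kb of the window the differences were smaller, at -1.2 points for marked bins, -4.6 for U2 and 1.6 for U3, and over 400 kb that of U3 was 2.5 points.

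The state differed in 157 bins between KO and WT in NT, 15.7% of the window, where 11.4% of the genome differed. Of the 455 bins marked in WT, 80 were U1 in KO, or 17.6%, near the genome share of 19.5%. Of the 545 bins that were U1 in WT, 26 were marked in KO, or 4.77%, near the genome share of 3.98%. These shares lie close to the background, so in NT bins differed between marked and U1 by genotype about as often as in the genome. The differences of single states were larger in size than in the genome, at -9.9 against -3.15 points for U2 and 5 against 1.16 for U3. The genome values are net over all bins. How often other windows of 200 kb reach such differences of U2 or U3 was not examined, so they are not shown to be unusual. U1 in KO where WT had U2 accounted for 78 bins, with runs at chr4:88854001-88858400 (22 bins), chr4:89021401-89025600 (21 bins) and chr4:88906801-88909200 (12 bins). U3 in KO took the place of U2 in 24 bins and of U1 in 23, of which 17 formed the run chr4:88885601-88889000.

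Within GS, the marked share was 54.4% in KO and 54.4% in WT, a difference of 0 points, where chromosome 4 differed by -3.00 and the genome by -2.57. Over the inner 100 kb the difference was -4.2 points. Within the equal totals, bins differed in both directions. Of the 456 bins that were U1 in WT, 60 were marked in KO, or 13.2%, where the genome share was 3.38%. Of the 544 bins marked in WT, 60 were U1 in KO, or 11.0%, where the genome share was 16.5%. A different marked state was found in 84 of the 484 bins marked in both, or 17.4%, against 11.1% in the genome.

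The state differed in 204 bins between KO and WT in GS, 20.4% of the window, where 10.1% of the genome differed, and 20.5% of windows had as many differing bins. U2 in KO where WT had U1 was found at chr4:89031401-89039000 (38 bins) and chr4:88928601-88932600 (20 bins). U1 in KO where WT had U2 was found at chr4:88906401-88911400 (25 bins), chr4:88885601-88889000 (17 bins) and chr4:88959801-88963000 (16 bins). U3 in KO where WT had U2 made up a further 41 bins, all in the left stretch, where U3 covered 30.5% in KO-GS and 25.2% in WT-GS. In GS the KO cells thus had marked sequence in the U3 gap and on the right that WT cells lacked, and lacked 3 U2 runs that WT cells had.

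Set side by side, the segmentations differed in which bins each alone had marked or unmarked. Bins marked in every segmentation but KO-NT numbered 66 (13.2 kb), 6.6% of the window against 2.52% of the genome, and 59 of them were U2 in the other three. KO-GS alone was marked in 55 bins (11 kb), all U2, which is 5.5% of the window against 0.805% of the genome. WT-GS alone was marked in 17 bins, 1.7% against 1.62% of the genome. WT-NT alone was marked in 1 bin and KO-NT alone in 0, against genome shares of 1.45% and 1.13%. KO-NT also had the lowest marked share of the 4 in the whole genome. The run chr4:88885601-88889000 took 3 different states, being U1 in KO-GS, U3 in KO-NT, U2 in WT-GS and U1 in WT-NT. Comparisons that use the same segmentation are not independent, and the 2 comparisons with KO-NT share its low marked share.

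**Figure D5:**
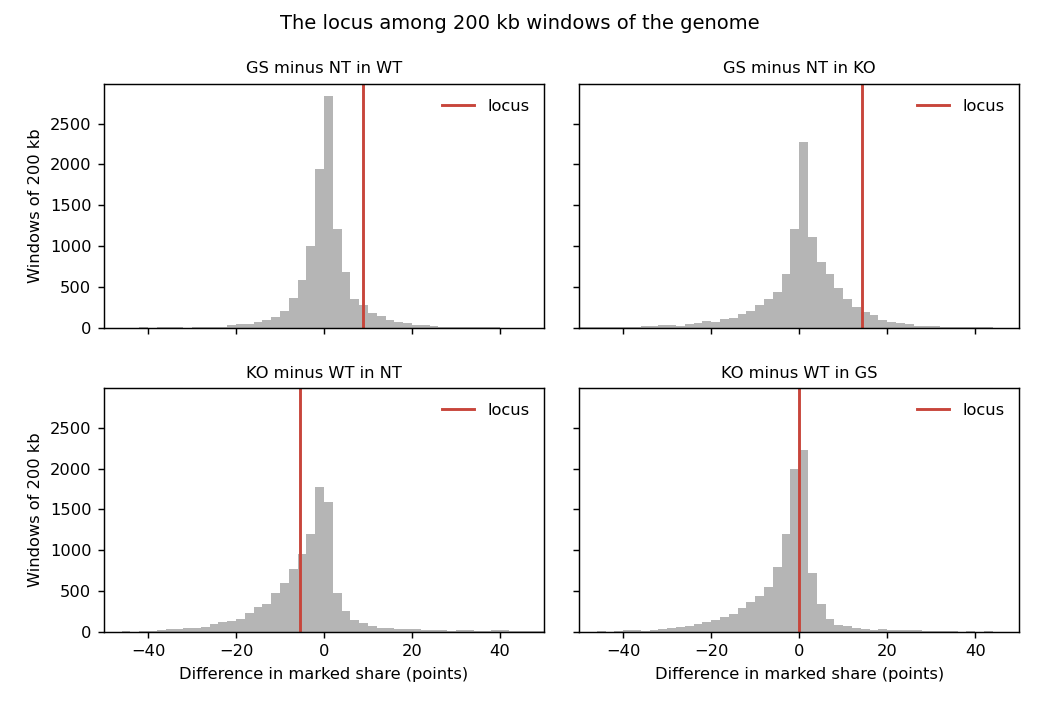
Number of 200 kb windows of the genome (y axis) by their difference in marked share in percentage points (x axis) for the 4 comparisons, among the 10572 windows with marked sequence, with the locus as a red line and windows beyond 50 points in either direction left off. The locus lies in the upper tail for GS minus NT, at 8.9 in WT and 14.3 in KO, and inside the bulk for KO minus WT, at -5.4 in NT and 0 in GS.

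Windows with a makeup like that of the locus were found by the sum of absolute differences over 16 shares, those of the 4 states in the 4 segmentations. The most alike was chr8:35000001-35200000 with a sum of 36.2 points, followed by chr2:154800001-155000000 with 36.6, chr16:92000001-92200000 with 37.8, chr12:21400001-21600000 with 39 and chr16:37800001-38000000 with 39.2. The median over the 13260 other windows was 316 points. All 5 had a higher marked share in GS than in NT in both genotypes, a pattern that the measure of likeness itself selects for, and the genes they hold were not placed.

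No SIRT7 peak lay in the window in either list. The GS list placed 0 of its 2671 peaks there, which allows a share of up to 0.112%, and the NT list 0 of its 90 peaks, which allows up to 3.33%. Such counts are usual for a window of this size, since 16.1% of windows held a GS peak and 0.618% held an NT peak. The genome means were 0.201 GS and 0.00678 NT peaks per 200 kb. SIRT7 was not precipitated from KO cells in the libraries used here, so the lists have no background from cells that lack the protein.

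The nearest GS peak lay 342.6 kb beyond the right edge, at chr4:89392559-89393033 (475 bp), with a score of 560 in the authors' list. It lay in U1 in all 4 segmentations, 25.2 kb from the nearest marked bin in KO-GS, 29.6 kb in KO-NT, 17.2 kb in WT-GS and 33.8 kb in WT-NT. On the other side the nearest GS peak lay 1897 kb from the left edge, at chr4:86951440-86952759 (1320 bp), also in U1 in all 4. The nearest NT peaks were 39132 kb beyond the right edge and 65265 kb before the left edge. No listed SIRT7 peak thus lay inside the locus, whose states differed between GS and NT in both genotypes. Whether SIRT7 binding bears on these states was not tested, and the lists are from WT cells alone. Binding below the threshold of the lists was not detectable from these files.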

How the data were processed

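Formaldehyde-fixed chromatin was precipitated from nuclear extracts for SIRT7 and from whole cell extracts for macroH2A1.1 and H3K27me3, per the labels' protocols. Per the submitters' processing notes, MACS 1.4.2, deepTools 2.4.2, Bowtie, Trimmomatic 0.36, SAMtools 0.1.19 and FastQC 0.11.3 were used, with hg19 listed beside mm9 and no role given for any. The sources used here do not name the segmentation tool, its model, the peak settings or the read depths. The authors deposited 1 segmentation for each genotype and treatment, a state name per interval, and 1 SIRT7 list for each treatment, per the labels' descriptions. With every peak the authors deposited a score, a whole number of at most 1000 and of unstated origin, which served only to describe and filter peaks. Signal tracks were not analysed here, so a bin in U1 cannot be told apart from a bin without reads.

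Segments were expanded to 200 bp bins with Python 3.11.15 and NumPy 2.4.6, by steps tested on simulated data, and figures were drawn with Matplotlib 3.10.9. Bins were compared pair by pair between segmentations, and peaks counted where they overlapped the window by 1 bp or more. A count of 0 was given with the share that 3 counts would make, which covers counting error only. With 1 pooled file per condition no test across samples could be run, so the window is set beside chromosome 4, the genome and windows of 200 kb. The genes named are both members, 3 neighbours on either side of the pair in the RefSeq annotation and Gm12610, which lies between them and was named after the annotation was seen. Members, neighbours and alternatives were chosen with earlier results of these data known. Alternatives were bins of 1 kb, joining segments under 1 kb, the inner 100 kb, a 400 kb window, marked against U1 only, peaks by midpoint and the upper part of each list by score.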

Additional observations from a re-analysis of the deposited data

Results flagged for a closer look

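Treatment went with opposite differences in KO and WT for the 2 rarer states of the locus. The U3 share differed by -1.1 points between GS and NT in KO and by 1.6 points in WT, so the KO difference minus the WT difference was -2.7 points. The U4 share differed by 1.1 points in KO and by -0.5 points in WT, so the KO difference minus the WT difference was 1.6 points. Both states had the same opposite signs in the whole genome, at -0.541 points in KO and 0.540 in WT for U3, and at 0.815 in KO and -0.382 in WT for U4. The opposition in the window did not hold under every alternative. Over the inner 100 kb the U3 difference was -1 points in KO and -0.4 in WT, and the U4 difference was -0.8 in KO and 0.4 in WT. With bins of 1 kb the U4 difference was 0 in KO and -1 in WT. Each condition is a single pooled segmentation, so neither difference was tested.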

How the results depend on the processing

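With bins of 1 kb and with segments under 1 kb joined, all 24 shares and differences of the locus stayed within their 95% binomial intervals, which treat neighbouring bins as independent. The intervals of the differences also ignore that the 2 segmentations compared cover the same bins. They therefore do not measure the spread of a bin-by-bin difference. Of 18 differences other than 0, the sign was kept in 16 with bins of 1 kb, 18 with joined segments, 14 over the inner 100 kb and 18 over 400 kb. The marked and U1 differences are the same values with opposite signs, so the 18 and the 24 above include them in duplicate. The inner 100 kb gave differing bins of 10.8% for GS minus NT in KO, 7.4% for GS minus NT in WT, 17.8% for KO minus WT in GS and 7% for KO minus WT in NT. The 400 kb window gave 18.2% for GS minus NT in WT, 16.9% for KO minus WT in GS and 18.2% for KO minus WT in NT. Comparing only marked with U1 gave 20.5% for GS minus NT in KO, 9.5% for GS minus NT in WT, 12% for KO minus WT in GS and 10.6% for KO minus WT in NT, fewer by construction because changes among marked states are not counted. The marked difference for GS minus NT was 1.4 points in KO and 4.4 in WT over the inner 100 kb, and 19.45 points in KO and 13.45 in WT over 400 kb. The inner 100 kb turned the sign of 4 differences, and the cause was not tested. These were U4 for GS minus NT, at -0.8 points in KO and 0.4 in WT, U3 for GS minus NT in WT, at -0.4 points, and U4 for KO minus WT in NT, at 1.8 points. With bins of 1 kb, U4 came to 0 for GS minus NT in KO and for KO minus WT in NT. Counts of SIRT7 peaks in the window were 0 under every alternative tried. No analysis of paired samples was possible because each segmentation and peak list pools its replicates. For the same reason no replicate could be left out.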
